A study of Homo sapiens with 27 samples.

Results

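The expression of GATA3, of the other GATA factors GATA2 and GATA6, of the GATA repressor TRPS1 and of the GATA cofactor ZFPM1 (FOG1) was compared across 4 lines of T47D cells. The genes were chosen by name, and all 5 were among the 26485 genes of the count table and among the 14789 genes that were high enough to test. T47D is an established line of luminal breast cancer. The control cells carried the empty pHAGE lentiviral vector, and the other lines carried a mutant of GATA3 (Splice del, C321fs or A333fs) in the same vector as a Ty1-tagged protein. Each line was 1 pool of puromycin-selected cells at a passage below 10, and each gave 3 RNA-seq libraries. What else set a pool apart enters each of its comparisons, and the p-values measure the spread between libraries of 1 pool. All mutant lines still carried their own wild-type GATA3. The sample descriptions name a richer medium on collagen-coated plates than the methods do, so the medium of these libraries is not settled.

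GATA factors are zinc finger proteins that bind the short DNA motif from which the family takes its name. GATA3 is the leading member of the family in luminal cells of the breast, where it acts with FOXA1 and the estrogen receptor. GATA2 and GATA6 bind the same motif in blood, endothelial, endodermal and other tissues. TRPS1 has a single GATA-type zinc finger and represses genes with GATA sites, and it is abundant in breast cancer. ZFPM1 binds the N-terminal zinc finger of GATA factors and recruits the NuRD and CtBP corepressors.

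The mutants alter the second, C-terminal zinc finger of GATA3, which makes the main contact with the motif. The sequence of exon 5 and of the splice acceptor before it, where the 3 mutants lie, is shown because the counts of GATA3 cannot tell the mutant from the wild-type transcript. It is the plus strand of chr10:8069449-8069598 in hg38, with the last 24 bases of the intron before the exon, which starts at 8069473. Capitals mark the cysteine codon that C321fs is named for (chr10:8069509-8069511) and the alanine codon that A333fs is named for (chr10:8069545-8069547), as they are numbered in the isoform of 444 codons:
GATA3 exon 5: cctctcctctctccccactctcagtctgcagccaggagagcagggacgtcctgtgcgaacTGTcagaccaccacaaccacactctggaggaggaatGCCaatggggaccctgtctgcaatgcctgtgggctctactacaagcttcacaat
In the isoform of 443 codons the exon opens with codon 308, a serine. The Splice del mutant stands for a loss of bases at the acceptor of this exon. In the start of the same stretch (chr10:8069449-8069493), capitals mark the AG that ends the intron and the next AG of that kind, which ends 7 bases into the exon:
GATA3 splice acceptor: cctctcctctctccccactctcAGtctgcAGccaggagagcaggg
The counts were made per gene, so a fragment from coding sequence that the mutant and wild-type transcripts share was counted as GATA3 from either.

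The libraries held 27872208 to 36788024 counted fragments. Levels are given as CPM, counts relative to library size, with library sizes scaled by the TMM factors of edgeR. These factors lay between 0.884 and 0.943 in control and between 1.01 and 1.05 in mutant libraries. Of the 8 luminal markers, including KRT8, EPCAM and ESR1, all were tested and all were at or above 207.7 CPM in control. Against control 2, 1 and 2 of them passed higher and 3, 4 and 4 lower in the Splice del, C321fs and A333fs lines. To pass is to have an adjusted p below 0.01 in the edgeR test described below. Of all tested genes 41.1%, 36.9% and 47.4% passed in either direction. The keratin gene KRT8 had log2 fold changes of -1.02, -0.84 and -0.49, KRT18 of -0.82, -0.65 and -0.46 and KRT19 of -0.64, -0.57 and -0.61, while the adhesion gene EPCAM had 0.42, 0.37 and 0.37, and each of these values passed. KRT5, PTPRC, FAP, PDGFRB, PECAM1 and CDH5, which mark basal, blood, stromal and endothelial cells, had at most 3 counts in any library. KRT14 had 16 to 21 counts and the leukocyte marker ITGAM 44 to 49 counts in the A333fs libraries, against at most 1 in control. In the Splice del libraries KRT14 had 2 to 8 and ITGAM 19 to 26 counts, and in the C321fs libraries each had at most 3. COL1A1 was at 53.4 ± 5.91 CPM in control and 30.1 ± 1.85 CPM in A333fs cells. The part of these markers in the results was not tested. The changes of all genes against control moved with the GC content of their exons, with a Spearman's rho across genes that was -0.51 in the Splice del, -0.55 in the C321fs and -0.67 in the A333fs line. The GC content of the 5 genes ran from 40.5% for TRPS1 and 53.7% for GATA3 over 55.2% for GATA6 and 61.0% for GATA2 to 73.5% for ZFPM1, and it is therefore set beside their changes.

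GATA3 and TRPS1 were by far the most abundant of the 5 genes. Per kilobase of exon, control cells held 417 ± 16.5 CPM (SD, n = 3) of GATA3 and 72.4 ± 4.39 CPM of TRPS1. GATA2 followed with 13.3 ± 1.06, ZFPM1 with 7.61 ± 0.663 and GATA6 with 2.92 ± 0.153 CPM per kilobase. The order was the same in each mutant line, and no neighbours in it came within their spread of each other. Among the GATA genes 1 to 6, GATA3 made up 94.8% ± 0.117 of the level per kilobase in control, 94.9% ± 0.0563 in the Splice del, 95.02% ± 0.216 in the C321fs and 95.6% ± 0.106 in the A333fs line. GATA2 made up 3.02% ± 0.154, 2.84% ± 0.166, 2.69% ± 0.0974 and 2.60% ± 0.0453. The share of GATA3 thus moved by less than 1 percentage point between any of the lines. A share this near to the whole moves little with the level of GATA3, so it does not show that the levels were stable. In the mutant lines it can include coding fragments of the introduced mutant.

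**Figure D1:**
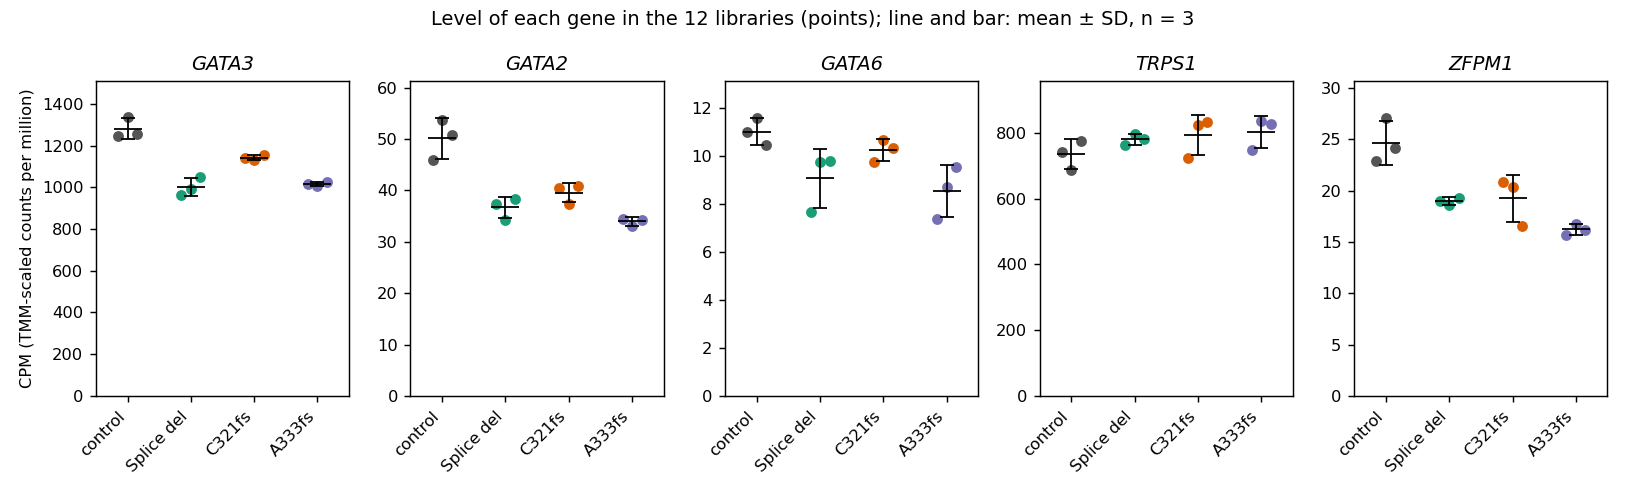
CPM of the 5 genes (vertical axes from 0, a scale for each gene) in each of the 12 libraries by line; points are libraries, and the black line and bar are the mean and SD of 3. The mutant libraries of GATA3, GATA2 and ZFPM1 lie below the 3 control libraries, while those of TRPS1 overlap them.

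Against control, GATA2 and ZFPM1 fell in all 3 mutant lines, GATA3 in Splice del and A333fs cells and GATA6 in A333fs cells, at an adjusted p below 0.01 (quasi-likelihood test of edgeR, Benjamini-Hochberg adjustment over the tested genes). TRPS1 passed in none. The number that passed was 3 of 5 in the Splice del, 2 in the C321fs and 4 in the A333fs line, where 41.1%, 36.9% and 47.4% of all tested genes passed. With the further limit of a fold change over 1.5, which makes a call, ZFPM1 in A333fs cells was the only one, so 0, 0 and 1 of 5 were called against 10.7%, 6.88% and 12.3% of all genes. That single call was lost without control replicate 2 or A333fs replicate 1, at log2 fold changes of -0.54 and -0.58, while GATA2 in A333fs cells was called as well without control replicate 1. No library of a mutant line reached the lowest control library for 4 of the 5 genes in Splice del and A333fs cells and for 3 in C321fs cells, and for 31.3%, 34.3% and 26.7% of all tested genes. The median log2 fold change of the 5 genes was -0.36 in the Splice del, -0.17 in the C321fs and -0.36 in the A333fs line, beside 0.03, 0.02 and 0.01 for all tested genes. All tested genes are not matched to the 5 in GC content, with which the changes moved. At the GC content of GATA6, the middle of the 5, other genes had medians of -0.18, -0.19 and -0.26. The 3 comparisons share the control libraries. In an F-test of any difference among the 4 lines, 3 of the 5 genes passed (GATA2 adjusted p = 1.7e-05, GATA3 4.6e-05, ZFPM1 1.4e-04), as did 56.2% of all genes, while GATA6 (adjusted p = 0.0243) and TRPS1 (0.301) did not.

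GATA3 is on chromosome 10 from 8054704 to 8075201. Its libraries had 1247, 1339 and 1257 CPM in control, 961.6, 991.7 and 1050.0 CPM in the Splice del, 1141, 1130 and 1155 CPM in the C321fs and 1016, 1005 and 1027 CPM in the A333fs line. Every mutant library was below every control library, and the C321fs libraries lay between control and the other mutants. The fold of control was 0.781 (95% confidence interval 0.725 to 0.843) in Splice del, 0.891 (0.827 to 0.961) in C321fs and 0.793 (0.736 to 0.855) in A333fs cells. The adjusted p of these differences was 3.3e-05, 0.0130 and 4.5e-05, so the difference in C321fs cells missed the limit. It was 0.00232 there with DESeq2. Since coding fragments of the lentiviral transcript are counted with the endogenous ones, the lower total gives no separate value for wild-type GATA3. The other genes within 2.5 percentage points of GATA3 in GC content had medians of -0.14, -0.16 and -0.20 in log2 fold change, beside -0.36, -0.17 and -0.33 for GATA3 itself. The value of GATA3 was thus close to that median in C321fs cells. After GC and length correction, in which offsets took out how a library's counts varied with GC content and exon length, GATA3 fell by 0.30 in Splice del (adjusted p = 2.8e-06) and by 0.22 in A333fs cells (adjusted p = 1.9e-04) on the log2 scale, and its value in C321fs cells was -0.09 (adjusted p = 0.070).

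GATA2 is on chromosome 3 from 128479422 to 128493187, on the minus strand. Its level was 45.8, 53.7 and 50.8 CPM in the control libraries, 37.4, 34.3 and 38.3 CPM in Splice del, 40.5, 37.4 and 40.8 CPM in C321fs and 34.5, 33.04 and 34.3 CPM in A333fs libraries. All 9 mutant libraries were below control, and the A333fs libraries were the lowest as a line. The fold of control was 0.732 (95% confidence interval 0.663 to 0.808) in Splice del, 0.79 (0.716 to 0.872) in C321fs and 0.677 (0.613 to 0.749) in A333fs cells, with an adjusted p of 4.8e-05, 7.2e-04 and 5.4e-06. The log2 fold changes were -0.45, -0.34 and -0.56, and genes of like GC content had medians of -0.25, -0.24 and -0.41. GATA2 still fell after GC and length correction in Splice del (-0.29, adjusted p = 4.9e-05) and A333fs cells (-0.20, adjusted p = 0.00246). Its value in C321fs cells was then -0.16 (adjusted p = 0.0122).

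GATA6 is on chromosome 18 from 22169437 to 22202528. Its libraries had 11.02, 11.6 and 10.5 CPM in control, 7.66, 9.75 and 9.82 CPM in the Splice del, 9.77, 10.7 and 10.4 CPM in the C321fs and 7.39, 8.71 and 9.57 CPM in the A333fs line, from 229 to 362 counts per library. The Splice del and A333fs libraries were below control, each with 1 library well under the other 2, and the C321fs libraries overlapped control. The log2 fold change was -0.37 in A333fs cells (standard error 0.11, adjusted p = 0.00895), -0.29 in Splice del (0.11, adjusted p = 0.0341) and -0.10 in C321fs cells (0.11, adjusted p = 0.437). The value in A333fs cells was -0.19 after GC and length correction (adjusted p = 0.145) and -0.27 without A333fs replicate 1, and neither passed. It also missed the limit without any 1 of the control libraries, A333fs replicate 2, C321fs replicate 2 or Splice del replicate 2, at -0.40 to -0.33.

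TRPS1 is on chromosome 8 from 115408496 to 115669028, on the minus strand. Its libraries had 742.5, 687.6 and 775.9 CPM in control, 762.6, 796.9 and 780.2 CPM in the Splice del, 723.6, 822.9 and 832.6 CPM in the C321fs and 747.3, 834.8 and 827.3 CPM in the A333fs line. The mutant libraries overlapped control in each line. The fold of control was 1.06 (95% confidence interval 0.963 to 1.17) in Splice del, 1.08 (0.979 to 1.19) in C321fs and 1.09 (0.992 to 1.20) in A333fs cells, with an adjusted p of 0.290, 0.177 and 0.107. The size of the difference depended on the scaling of the libraries, and its direction on the GC and length correction. Without TMM factors, where the median of all genes rose to 0.22, 0.19 and 0.16, the log2 fold changes of TRPS1 were 0.27, 0.28 and 0.27 and each passed (adjusted p = 0.00375, 0.00382 and 0.00327). They were, after GC and length correction, -0.15, -0.08 and -0.10, and the value in Splice del cells passed (adjusted p = 0.00692).

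ZFPM1 is on chromosome 16 from 88453606 to 88535166. Its level was 22.8, 27.0 and 24.1 CPM in the control libraries, 19.0, 18.6 and 19.3 CPM in Splice del, 20.8, 20.3 and 16.6 CPM in C321fs and 15.7, 16.8 and 16.2 CPM in A333fs libraries. All 9 mutant libraries were below control. The fold of control was 0.768 (95% confidence interval 0.678 to 0.871) in Splice del, 0.78 (0.687 to 0.885) in C321fs and 0.657 (0.579 to 0.747) in A333fs cells, with an adjusted p of 0.00148, 0.00277 and 2.6e-05. Without control replicate 2 the first 2 no longer passed, with log2 fold changes of -0.31 and -0.29, and without C321fs replicate 3 the second was -0.26 and did not pass. ZFPM1 has the highest GC content of the 5 genes. The 43 other genes within 2.5 percentage points of it had medians of -0.23, -0.22 and -0.51, beside log2 fold changes of -0.38, -0.36 and -0.61 for ZFPM1. The log2 fold changes of ZFPM1 after GC and length correction were -0.16 (adjusted p = 0.058), -0.17 (0.053) and 0.02 (0.888), so that its call in A333fs cells was lost and the sign turned.

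**Figure D2:**
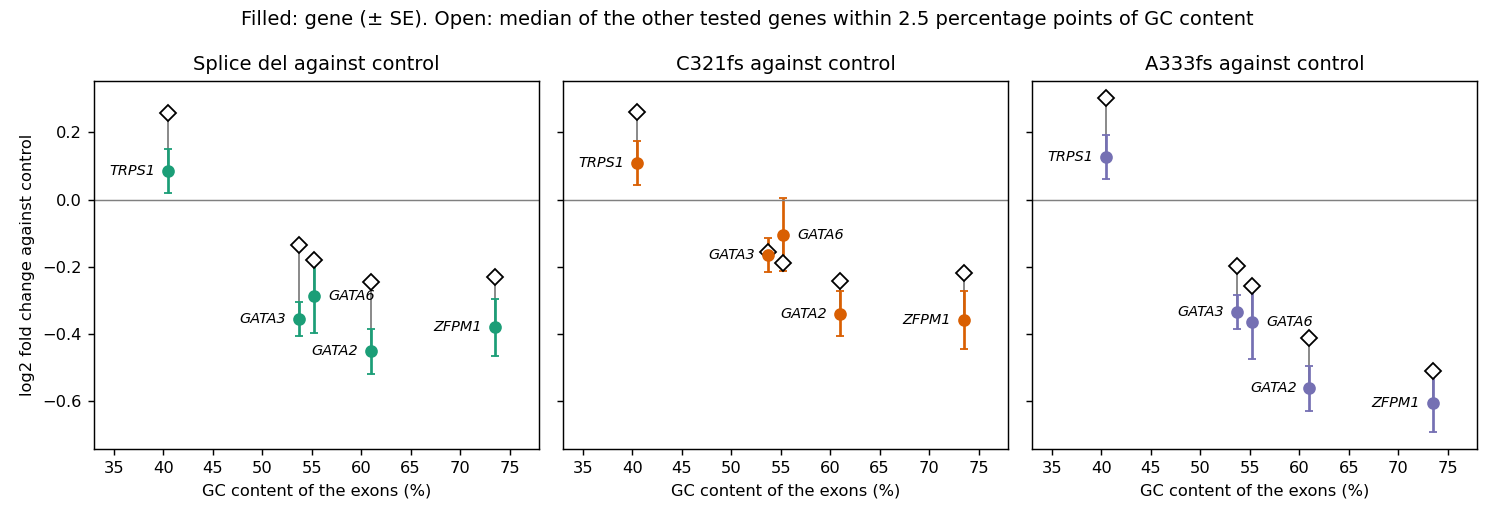
Log2 fold change against control (vertical axis) of the 5 genes over the GC content of their exons in percent (horizontal axis), a panel for each mutant line; filled points are the genes with their standard error and open diamonds the median of the other tested genes of like GC content. The diamonds fall from above 0 at the GC content of TRPS1 to below 0 at those of the other 4 genes; GATA3 in Splice del and A333fs cells and GATA2, ZFPM1 and TRPS1 in all lines lie below their diamond by more than the standard error, and GATA3 in C321fs cells and GATA6 in all lines lie within it.

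**Figure D3:**
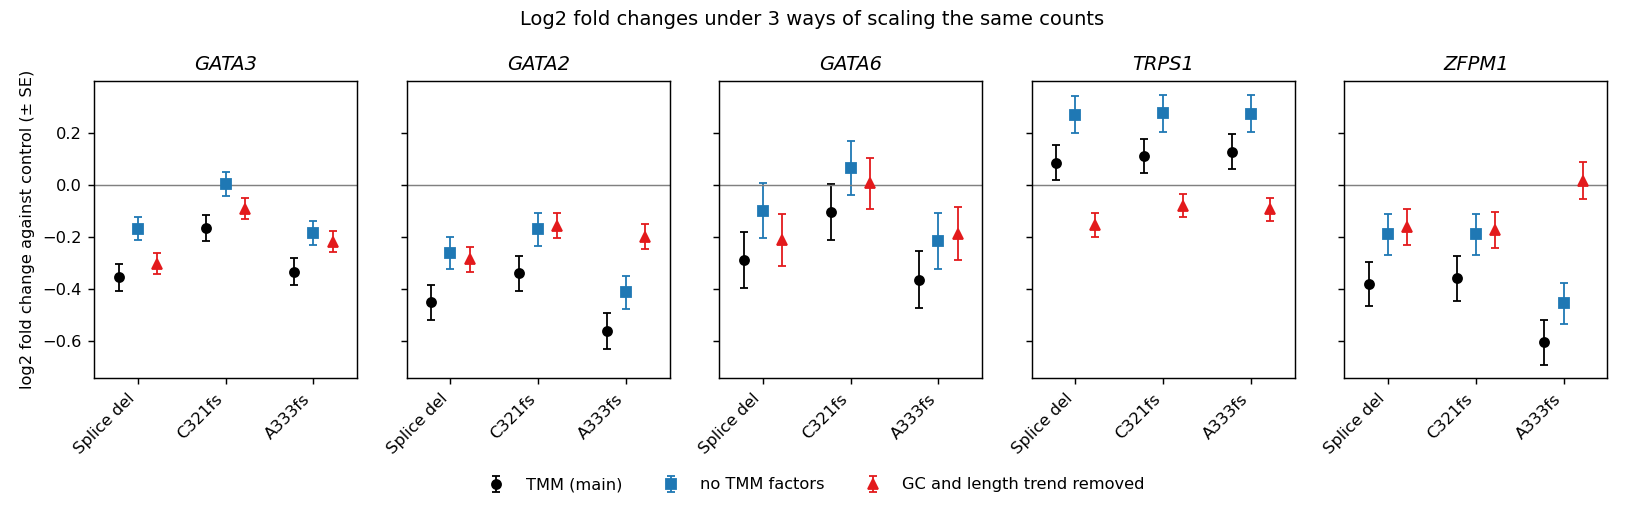
Log2 fold change against control with its standard error (vertical axis) of each gene in the 3 mutant lines under TMM (circles), without TMM factors (squares) and with the trend over GC content and length removed (triangles). GATA2 stays below 0 under all 3, TRPS1 lies above 0 with and without TMM factors and below 0 with the trend removed, GATA3 reaches 0.00 in C321fs cells without TMM factors, GATA6 in C321fs cells lies above 0 under the last 2, and ZFPM1 in A333fs cells moves from -0.61 to 0.02.

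Between the mutant lines no member passed an adjusted p of 0.01. The shares of all genes that passed were 6.32% between Splice del and C321fs, 15.7% between A333fs and C321fs and 11.9% between A333fs and Splice del cells, and 2.64%, 5.55% and 3.002% were called with the limit on the fold change. GATA3 came nearest, with a log2 fold change of -0.19 in Splice del against C321fs cells (95% confidence interval -0.30 to -0.08, adjusted p = 0.0221) and -0.17 in A333fs against C321fs cells (-0.28 to -0.06, adjusted p = 0.0216). The first of these passed with DESeq2 (adjusted p = 0.00454) and after GC and length correction (-0.21, adjusted p = 7.1e-04). GATA2 differed by -0.22 (-0.37 to -0.08, adjusted p = 0.0234) and ZFPM1 by -0.25 (-0.43 to -0.06, adjusted p = 0.0470) between A333fs and C321fs cells. TRPS1 differed by at most 0.04 in size, with an interval of -0.10 to 0.18 between A333fs and Splice del cells.

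Ratios within a library do not depend on its scaling factor. For every 1000 fragments of GATA3, control cells had 576 ± 54.9 fragments of TRPS1 (SD, n = 3; libraries at 595.6, 513.4 and 617.4). Splice del cells had 780 ± 32.4, C321fs cells 694 ± 52.4 and A333fs cells 790 ± 48.9. The lowest mutant library, at 634.0 in C321fs cells, was above the highest control library. How many other pairs of genes separate in this way was not counted. Other genes of like GC content had median log2 fold changes of 0.26, 0.26 and 0.30 for TRPS1 in Splice del, C321fs and A333fs cells. For GATA3 these medians were -0.14, -0.16 and -0.20. GATA2 had 39.1 ± 2.04 fragments for every 1000 of GATA3 in control, 36.7 ± 2.16 in the Splice del, 34.7 ± 1.32 in the C321fs and 33.4 ± 0.550 in the A333fs line, and the Splice del libraries overlapped control. ZFPM1 had 19.2 ± 0.935, 19.0 ± 0.718, 16.9 ± 2.17 and 15.96 ± 0.649. GATA6 had 8.61 ± 0.268, 9.05 ± 0.967, 8.995 ± 0.446 and 8.42 ± 1.04, without separation of the lines. These ratios were not tested, and GC content differs within each pair of genes by the values given above.

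**Figure D4:**
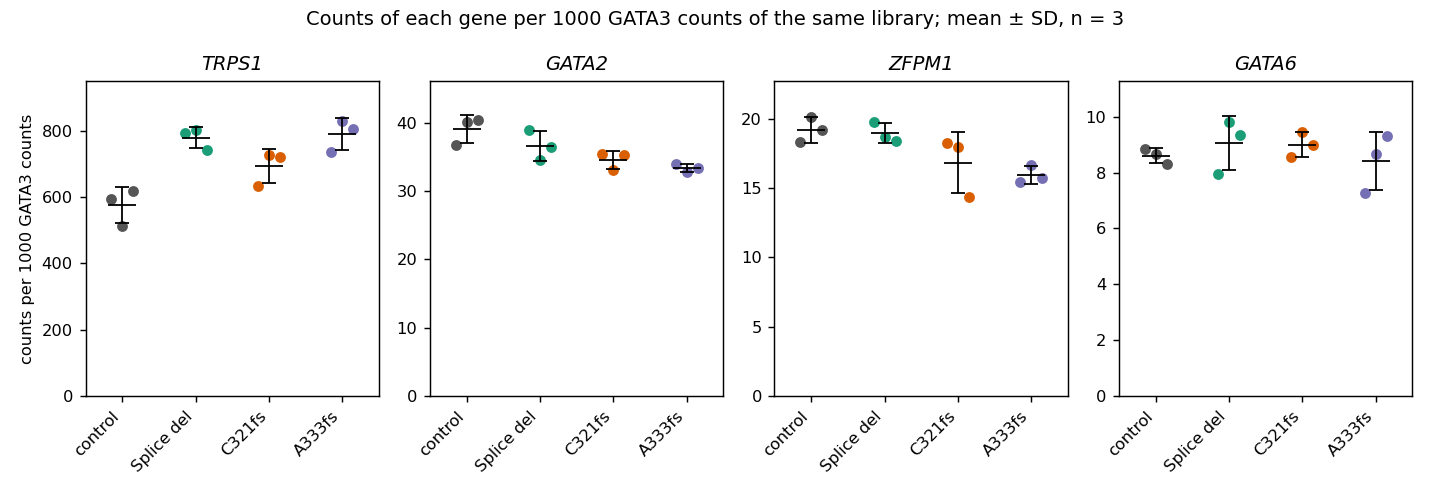
Counts of TRPS1, GATA2, ZFPM1 and GATA6 for every 1000 counts of GATA3 in the same library (vertical axes from 0) by line; points are libraries, and the black line and bar are the mean and SD of 3. All 9 mutant libraries lie above the 3 control libraries for TRPS1, while the lines overlap for GATA6. The separation for TRPS1 was not set against other pairs of genes.

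The other genes of the GATA and FOG family were read from the same fit. Of the 10 genes on this list 9 were tested, since GATA1, the erythroid GATA factor, had at most 2 counts in any library. In Splice del cells 2 of the 9 passed higher and 4 lower, in C321fs cells 0 and 3, and in A333fs cells 0 and 6, where 41.1%, 36.9% and 47.4% of all tested genes passed in either direction. GATA4, a factor of heart and endoderm, changed most. Its level was 13.1, 12.1 and 12.95 CPM in the control libraries, 6.29, 7.09 and 7.31 CPM in Splice del, 10.3, 8.32 and 8.42 CPM in C321fs and 3.904, 4.85 and 4.93 CPM in A333fs libraries. The 4 lines did not overlap one another. GATA4 was called lower in Splice del (log2 fold change -0.89, standard error 0.10, adjusted p = 5.6e-06) and A333fs cells (-1.48, 0.11, adjusted p = 5.2e-08), and it passed in C321fs cells (-0.50, 0.10, adjusted p = 9.6e-04). It was also lower in A333fs than in C321fs cells (-0.98, adjusted p = 9.1e-06) and Splice del cells (-0.59, adjusted p = 0.00191). After GC and length correction, the values against control were -0.72 (adjusted p = 4.6e-06), -0.31 (0.0128) and -1.09 (9.7e-08), and without TMM factors -0.70, -0.33 and -1.33, where the value in C321fs cells did not pass (adjusted p = 0.0121). The difference between A333fs and Splice del cells was -0.38 after the correction (adjusted p = 0.0169), and it was not called without Splice del replicate 2 (-0.57), Splice del replicate 3 (-0.55) or A333fs replicate 1 (-0.49).

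GATA5, which acts in heart and gut, fell in A333fs cells (-0.33, adjusted p = 0.00655) and had log2 fold changes of -0.01 in Splice del and 0.18 in C321fs cells. Its value in A333fs cells after GC and length correction was 0.09 and did not pass (adjusted p = 0.409), and that in C321fs cells was 0.35 and passed (adjusted p = 9.5e-04). The value in A333fs cells did not pass without TMM factors (-0.18) or without any 1 of the control or A333fs libraries (-0.35 to -0.30). ZFPM2 (FOG2), the paralog of ZFPM1, rose in Splice del cells (0.25, adjusted p = 0.00973), where the value after that correction was 0.01, and leaving out 1 library at a time kept it past the limit in 3 of 12 cases (0.20 to 0.33 over all), the exceptions including each Splice del library. ZGLP1, a GATA-like zinc finger gene of the germ line, was counted 53 to 164 times per library. Its level was 2.86 ± 0.343 CPM in control (SD, n = 3), 4.39 ± 0.142 in the Splice del, 3.44 ± 0.448 in the C321fs and 2.11 ± 0.483 in the A333fs line. It was called higher in Splice del cells than in control (0.62, adjusted p = 0.00273) and lower in A333fs than in Splice del cells (-1.06, adjusted p = 2.1e-04). These calls also held after GC and length correction, with values of 0.79 and -0.92, but the first was lost without control replicate 1 (0.53), control replicate 2 (0.62) or Splice del replicate 2 (0.60).

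**Figure D5:**
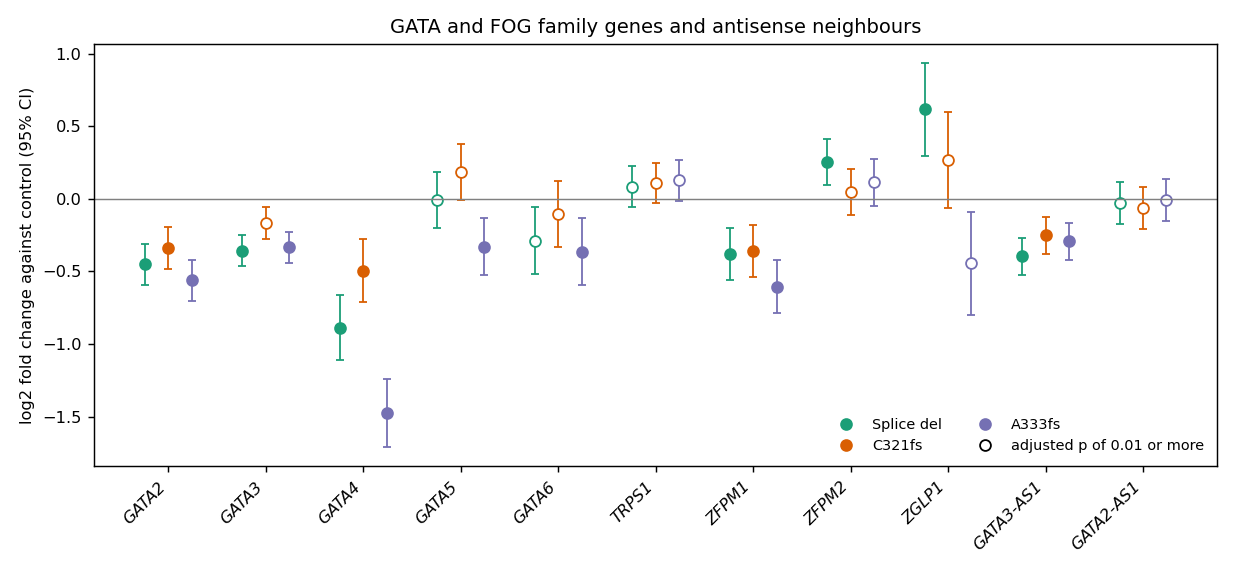
Log2 fold change against control with its 95% confidence interval (vertical axis) for the tested GATA and FOG family genes and 2 antisense neighbours, by mutant line; filled points have an adjusted p below 0.01. GATA4 lies lowest in all 3 lines, at -0.89, -0.50 and -1.48, while ZGLP1 lies above 0 in Splice del and C321fs cells and below 0 in A333fs cells; without TMM factors GATA3 in C321fs, GATA5 in Splice del, GATA6 in C321fs and GATA2-AS1 in all lines change sign, and after GC and length correction TRPS1 in all lines, ZFPM1, GATA5 and GATA2-AS1 in A333fs, ZFPM2 in C321fs and A333fs, GATA5 in Splice del and GATA6 in C321fs do.

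GATA3-AS1 and GATA2-AS1 are transcribed from the strands opposite to GATA3 and GATA2. The counting ignored the strand, and neither shares exon bases with another gene in the annotation used for counting. GATA3-AS1 fell in all 3 lines, from 166 ± 7.42 CPM in control (SD, n = 3) to 127 ± 3.07 in the Splice del, 140 ± 11.2 in the C321fs and 136 ± 4.56 CPM in the A333fs line (log2 fold changes -0.39, -0.25 and -0.29, adjusted p = 5.9e-05, 0.00271 and 6.1e-04). Its fragments for every 1000 of GATA3 numbered 130 ± 0.751, 127 ± 4.05, 122 ± 10.2 and 134 ± 4.97, with overlap of the lines. After GC and length correction only the value in Splice del cells passed (-0.25, adjusted p = 2.1e-05), and that in A333fs cells was -0.02. The fall in C321fs cells missed the limit without control replicate 2, C321fs replicate 2 or C321fs replicate 3 (-0.23 to -0.21), and without TMM factors neither C321fs (-0.09) nor A333fs cells (-0.15) passed. GATA2-AS1 passed in no line, at 24.8 ± 1.21 CPM in control, 24.3 ± 0.931 in the Splice del, 23.7 ± 1.61 in the C321fs and 24.6 ± 1.10 in the A333fs line. For every 1000 fragments of GATA2 it had 495 ± 19.2 in control and 663 ± 30.7, 600 ± 40.5 and 725 ± 28.4 in the mutant lines, all 9 libraries above control. The exons of GATA2-AS1 have 51.6% GC and those of GATA2 61.0%. Genes of like GC content had medians of -0.09, -0.11 and -0.10 for GATA2-AS1 and of -0.25, -0.24 and -0.41 for GATA2. Neither this ratio nor that of GATA3-AS1 to GATA3 was tested. GATA6-AS1 had 3 to 12 counts per library and passed in no line.

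The genes of GATA partner proteins were counted in the same way, and their counts are to be read beside the same 41.1%, 36.9% and 47.4% of all tested genes that passed in either direction. Of 14 LMO, LDB and TAL partners 8 were tested, of which 1, 0 and 2 passed higher and 1, 2 and 4 lower in the Splice del, C321fs and A333fs lines, so that 2 of 8 in the first 2 lines were a smaller share than that of all genes. RUNX1, a partner of GATA factors in blood and breast, was called lower in A333fs cells (-0.62, adjusted p = 6.9e-07) and was at -0.73 after GC and length correction, at -0.48 without TMM factors and at -0.58 without A333fs replicate 2, where the last 2 were not called. SSBP4, of the LDB1 complex, was also called lower there (-0.77, adjusted p = 2.7e-06), but was at -0.26 after that correction. LMO2, which bridges GATA factors to LDB1, was called higher in A333fs cells at 11 to 20 counts per library against 2 to 5 in control (log2 fold change 1.89, standard error 0.57, adjusted p = 0.00988), and leaving out 1 library at a time ended this call in 7 of 12 cases, at 1.63 to 2.14, among them each control library and A333fs replicates 1 and 3. All 15 genes of the NuRD and CtBP corepressors, which ZFPM1 recruits, were tested. Of these 2, 1 and 3 passed higher and 8, 7 and 8 lower, and the medians of the list were -0.19, -0.14 and -0.25, beside 0.03, 0.02 and 0.01 for all tested genes. This list was not matched to other genes by GC content, with which the changes moved. The share of all genes that passed lower is not given. GATAD2A (-0.61, adjusted p = 1.7e-07) and MBD3 (-0.59, adjusted p = 1.4e-04), both of NuRD, were called lower in A333fs cells, and were at -0.38 and -0.09 after GC and length correction. That value of MBD3 did not pass (adjusted p = 0.227). Without A333fs replicate 2 neither was called (-0.57 and -0.51), nor was MBD3 without control replicate 2 (-0.55) or 3 (-0.58).

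Of the 10 coactivators and chromatin partners, all tested, 1, 0 and 1 passed higher and 2, 4 and 2 lower, against the 41.1%, 36.9% and 47.4% of all genes. CITED2, which binds the acetyltransferases of the CREBBP type, was at 114 ± 5.98 CPM in control (SD, n = 3), 182 ± 13.9 in the Splice del, 88.7 ± 8.11 in the C321fs and 274 ± 4.87 in the A333fs line. It rose in Splice del (0.67, adjusted p = 1.9e-06) and A333fs cells (1.26, adjusted p = 2.3e-09) and fell in C321fs cells (-0.37, adjusted p = 6.2e-04), and the difference between A333fs and C321fs cells was 1.63 (adjusted p = 1.5e-10). CREBBP itself was called lower in C321fs cells (-0.61, adjusted p = 1.3e-05), but not without control replicate 3 (-0.55) or C321fs replicate 1 (-0.57), nor after GC and length correction (-0.45). The fall of CITED2 in C321fs cells did not pass without TMM factors (-0.20, adjusted p = 0.0134). Of the 10 luminal partner factors, all tested, 1, 0 and 0 passed higher and 3, 4 and 6 lower, near the share of all genes, and SPDEF, an ETS factor of luminal cells, was called lower in A333fs cells (-0.74, adjusted p = 9.2e-07, and -0.32 after GC and length correction). Of the 3 genes for turnover of GATA proteins 0, 1 and 1 passed, each lower, and none was called.

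The level of GATA3 over the 12 libraries moved with that of GATA2 (Pearson's r of log2 CPM 0.924), GATA6 (0.803) and ZFPM1 (0.802), and GATA2 moved with ZFPM1 (0.885). TRPS1 had a negative r with each of the other 4 genes, from -0.66 with ZFPM1 to -0.13 with GATA6. These values are descriptions, since the libraries fall into 4 lines and share their depth and GC trend. The genes most like GATA3 were DSCAML1 (0.981), NLE1 (0.979) and ABCB6 (0.978), those most like GATA2 were SCAP, SLC27A4 and TONSL (each 0.984), and those most like GATA6 were HSPA6 (0.911), TULP3 (0.903) and ZNF496 (0.902). TRPS1 was most like DDI2 (0.943), LONP2 (0.940) and DICER1 (0.929), and among the genes most like ZFPM1 were CARM1 (0.970) and R3HDM4 (0.969). By Spearman's rho TULP3 remained among the 3 genes most like GATA6 and DICER1 among those most like TRPS1, while the other genes named here did not remain.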

How the data were processed

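The series' RNA-seq libraries of T47D were used, 3 for each of 4 lines: control and the Splice del, C321fs and A333fs mutants. The authors trimmed the paired-end reads by Trimmomatic, aligned them to the hg38 build and deposited whole-number counts of properly paired fragments per gene from featureCounts 1.6.4, run without strand. The labels list HISAT2, while the paths in the file header point to another aligner. The ChIP-seq was not used here.

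In R 4.3.3, edgeR 4.0.16 (filterByExpr, TMM, glmQLFit and glmQLFTest) fitted 12 libraries with 1 coefficient per line. Genes passed at an adjusted p below 0.01 and were called with a fold change over 1.5 as well. DESeq2 1.42.0, other scalings and filters, a fold-change test, a replicate term, a trend over GC content and exon length (loess, span 0.3) entered as offsets, and fits without 1 library were alternatives. Correlations were taken on log2 CPM (prior count 2). On simulated data for Splice del against control with 14789 genes, 167 of 200 genes changed 2-fold were called, with 3 false calls, and 127 of the 127 at or above the level of the lowest of the 5 genes. The changes of the 5 genes against control were smaller than 2-fold, and how many changes of such a size are called was not simulated. With a simulated GC trend left in, as in the main test, 176 of the 200 were called with 40 false calls, and with it removed 167 with 0. The simulated trend was linear, of a set slope and in the control libraries alone. It was not matched to the data, so these false calls do not measure the effect of the real trend. In the real data the calls against control went from 1588, 1018 and 1815 to 1043, 662 and 805 after GC and length correction.

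The 5 genes, the lists and the tests were chosen with earlier results of these data known. Named genes are the 5 genes, the detected genes of the family and antisense lists, at most 3 called genes of each partner list by smallest adjusted p over the comparisons with control, and the 3 genes most like each of the 5, of which 1 gene is not reported here.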

Additional observations from a re-analysis of the deposited data

How the results depend on the processing

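The median of all genes against control was 0.22, 0.19 and 0.16 on the log2 scale in Splice del, C321fs and A333fs cells without TMM factors, 0.12, 0.11 and 0.12 with upper-quartile scaling and -0.05 in each after GC and length correction, against 0.03, 0.02 and 0.01 under TMM. Log2 fold changes follow in the same order of lines. Without TMM factors TRPS1 was at 0.269, 0.275 and 0.272 and passed, ZFPM1 in Splice del and C321fs cells (each -0.191), GATA2 in C321fs (-0.172) and GATA6 in A333fs cells (-0.217) no longer passed, and GATA3 and GATA6 in C321fs cells turned to 0.002 and 0.064. Upper-quartile scaling gave -0.253 for GATA6 and 0.238 for TRPS1 in A333fs cells, and the second passed. After GC and length correction TRPS1 turned to -0.154, -0.08 and -0.095, GATA6 in C321fs cells to 0.005 and ZFPM1 in A333fs cells to 0.015, while ZFPM1 in Splice del (-0.163) and C321fs (-0.173), GATA2 in C321fs (-0.157) and GATA6 in A333fs cells (-0.188) no longer passed. GATA6 in A333fs cells also no longer passed under a minimum of 10 counts per library (-0.348), and GATA3 in C321fs cells passed with DESeq2 (-0.178). In the test against a fold change of 1.5, GATA3 (-0.356 and -0.334 in Splice del and A333fs cells), GATA2 (-0.451, -0.34 and -0.562), GATA6 (-0.365 in A333fs cells) and ZFPM1 (-0.38, -0.359 and -0.605) did not pass, since that test asks for a larger change.

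Between the mutant lines the sign of small differences turned. Without TMM factors A333fs against C321fs was -0.002 for TRPS1, A333fs against Splice del -0.017 for GATA3, and Splice del against C321fs 0 for ZFPM1. After GC and length correction A333fs against Splice del was 0.087 for GATA2, 0.027 for GATA6 and 0.178 for ZFPM1, A333fs against C321fs was -0.015 for TRPS1 and 0.187 for ZFPM1, and Splice del against C321fs was 0.01 for ZFPM1.

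The number of the 5 genes called in A333fs cells went from 1 to 0 with upper-quartile scaling, without TMM factors, with no filter on low counts, with the libraries of the 2 lines only, in the test against a fold change of 1.5 and after GC and length correction. It ran from 0 to 2 without 1 library, where 9.58% to 13.1% of all genes were called. Of all tested genes 12.3% were called in A333fs cells in the main test, 12.2% with upper-quartile scaling and 13% without TMM factors. The share was 8.73% with no low-count filter, 2.39% in the fold-change test and 5.44% after GC and length correction. With the libraries of the 2 lines only, 1786 of 14340 genes were called. A count among 5 genes is too small to be told apart from these shares. Over the 12 fits that left out 1 library each, values against control ran from -0.456 to -0.271 for GATA6 in A333fs cells, which passed in 5 of them, from -0.434 to -0.31 for ZFPM1 in Splice del and from -0.422 to -0.263 for ZFPM1 in C321fs cells. The ranges that crossed 0 were -0.086 to 0.012 for TRPS1 and -0.118 to 0.041 for ZFPM1 in Splice del against C321fs cells, -0.044 to 0.068 for TRPS1 in A333fs against C321fs cells, and -0.007 to 0.06 for GATA3 and -0.192 to 0.017 for GATA6 in A333fs against Splice del cells. The cause of these changes was not tested.

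With the replicate block the call of ZFPM1 in A333fs cells stood at -0.60 (adjusted p = 4.7e-05), and the block changed no call of the 5 genes. GATA5 in A333fs cells no longer passed with it (-0.328, adjusted p = 0.0114), and its value turned to 0.088 after GC and length correction. Replicate numbers did not pair the libraries: over 18 pairs with the same number the correlation of their deviations averaged -0.00917 and ran from -0.123 to 0.165. Of the values and counts against control under all alternatives, 346 kept their direction and side of the limits, 29 no longer passed, 5 newly passed, 7 turned and 9 counts moved. Between mutants 374 kept them, 5 newly passed and 17 turned. For the other named genes 44 values of the main test were followed. Under the alternatives 849 results kept their direction and side of the limits, 117 no longer passed and 1 turned. This tally leaves out other values of these genes. Among those, GATA5, GATA2-AS1 and ZFPM2 turned in some lines, and GATA5 in C321fs cells newly passed after GC and length correction. GATA6 had the fewest counts of the 5 genes, with at least 229 in each library.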
